A study of Mus musculus with 10 samples.

Results

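The 10 enzymes described here carry glucose through glycolysis to lactate, and they are the products of Hk2, Pfkl, Aldoa, Tpi1, Gapdh, Pgk1, Pgam1, Eno1, Pkm and Ldha. They were chosen by gene symbol, which gave 11 of the 56748 gene rows in the deposited tables, because Aldoa is listed under 2 gene identifiers. The second Aldoa row (ENSMUSG00000114515) held between 0 and 4 counts per library and was too low to test, so each symbol stands for 1 tested row. RNA was sequenced after poly-A selection from wild-type mouse hepatocytes kept overnight in medium that adipocytes had conditioned. In Mttp_KO_CM the medium came from adipocytes of A-Mttp-/- mice, and in Mttp_flox_CM it came from adipocytes of Mttp f/f mice, with 5 libraries in each group. The hepatocytes carried intact Mttp, so its RNA checks no label. The Mttp product, microsomal triglyceride transfer protein, lipidates apolipoprotein B. All fat donors were male, had eaten an obesogenic diet for 6 months, and are given in the labels as n = 3. The adipocytes were differentiated from stromal vascular cells of the inguinal depot with a cocktail of IBMX, insulin, dexamethasone, indomethacin and rosiglitazone, and were starved overnight before the medium was taken. The age and strain of the mice, the promoter behind the adipose deletion, and the hepatocyte donors are not stated by the labels. No label says whether the 5 libraries per group were separate cultures, so the p-values set the group difference against the spread between these libraries. With fat donors given as n = 3, the 5 libraries of a group cannot be 5 separate donors. The p-values therefore do not stand for variation between donor mice.

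Glycolysis splits glucose into pyruvate in the cytosol and yields ATP and NADH, and lactate dehydrogenase turns pyruvate into lactate. Hepatocytes run much of the same chain in both directions, since gluconeogenesis shares every reversible step. The adult liver relies on its own forms of several enzymes, among them liver pyruvate kinase (Pklr), whereas Hk2, Aldoa and Pkm are the forms that prevail in many other tissues and in growing cells.

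The libraries held between 14283517 and 17178131 counts in Mttp_KO_CM and between 14199798 and 15950530 in Mttp_flox_CM. Hepatocyte markers summed to between 44865 and 46362 CPM (counts scaled in the usual way by library size, after TMM normalisation) in Mttp_KO_CM and between 53898 and 56523 CPM in Mttp_flox_CM, so the labelled cell type was present in every library. Markers of other liver cells moved with the groups. All 13 endothelial markers were lower in Mttp_KO_CM, with a summed level of 1402 to 1487 CPM against 2471 to 2654 CPM. Of 12 stellate cell markers 10 were lower (66.2 to 74.2 CPM against 117 to 131 CPM), of 12 macrophage markers 11 were lower and 1 was higher (679 to 771 CPM against 948 to 1049 CPM), and of 6 tested cholangiocyte markers 2 were lower (305 to 371 CPM against 546 to 601 CPM). Of 11 tested hepatocyte markers 8 were lower and 2 were higher. All 3 tested adipocyte markers were higher (126 to 138 CPM against 102 to 116 CPM), while the adipocyte hormone Lep had 0 counts in every library and Adipoq had at most 2. Of the lymphocyte and neutrophil markers only Ptprc could be tested, and it was lower (7.51 to 10.2 CPM for the list against 9.91 to 12.8 CPM), with Cd3g and Nkg7 at 0 in every library. The 1 tested red cell marker, Hba-a1, was not called, and the list summed to at most 2.37 CPM in Mttp_KO_CM and 2.74 CPM in Mttp_flox_CM. In bulk RNA, fewer cells of a type and less RNA per cell cannot be told apart, and the part of these markers in the results on glycolysis was not tested.

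Most of the pathway was more abundant in hepatocytes given medium from knockout adipocytes. Of the 10 enzymes 8 were higher in Mttp_KO_CM, 0 were lower, and Hk2 and Gapdh did not pass the test (edgeR's quasi-likelihood test, Benjamini-Hochberg adjusted p under 0.05 over all 14183 genes tested). Over all genes tested, 36.4% were called, 18.2% as higher and 18.1% as lower. These were 2585 and 2571 genes. The 8 called enzymes were among the more abundant genes, from the 84.1 percentile of mean CPM for Pfkl to 99.7 for Eno1. Small changes are easier to call at such levels, and the share called among genes of like level was not worked out. With library size alone in place of TMM, 1982 genes were higher and 3217 were lower, so that 38.1% of called genes were higher instead of 50.1%, and all 8 enzymes were higher there as well. The increases were modest, between 1.13-fold for Tpi1 and 1.38-fold for Pkm, and the median log2 fold change of the 10 enzymes was 0.27 against 0.001 for all genes tested. For the same 8 enzymes every Mttp_KO_CM library lay above every Mttp_flox_CM library, a pattern that 13% of tested genes showed. All 10 enzymes together took 0.667 ± 0.0312% of the counts in Mttp_KO_CM and 0.567 ± 0.0164% in Mttp_flox_CM (SD, n = 5 each).

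**Figure D1:**
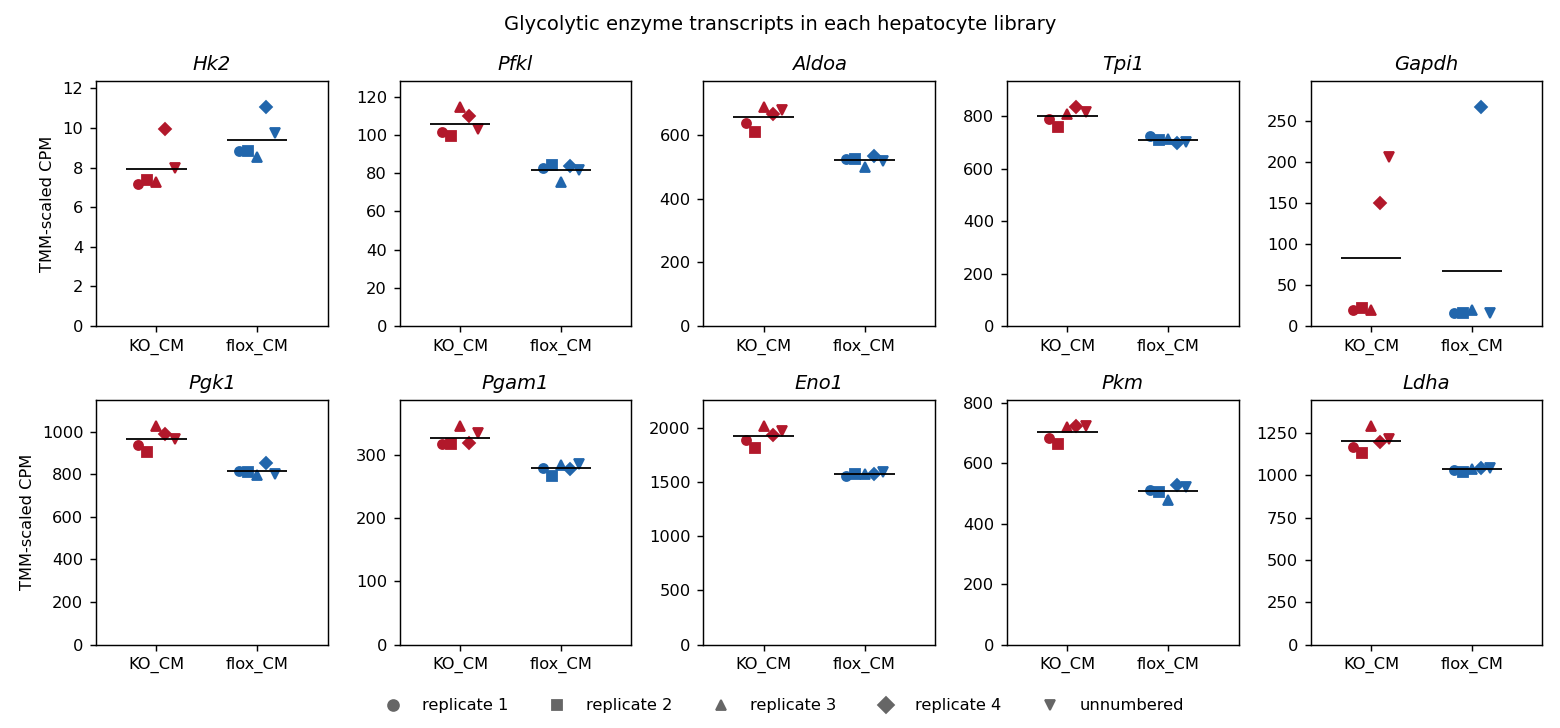
TMM-scaled CPM (y axis, from 0) of each of the 10 enzymes in every library, Mttp_KO_CM (KO_CM, red) left of Mttp_flox_CM (flox_CM, blue), with the group mean as a line and the marker shape giving the library. For 8 enzymes the 5 Mttp_KO_CM points lie above all Mttp_flox_CM points. Hk2 overlaps, and Gapdh has 3 points far above its other 7.

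The first steps of the pathway spend ATP to split glucose into triose phosphates. Hk2, on chromosome 6 (GRCm39, 82702006 to 82751435, minus strand), encodes hexokinase 2, which traps glucose as glucose 6-phosphate. Hk2 had 7.16, 7.37, 7.28, 9.94 and 7.99 CPM in Mttp_KO_CM replicates 1 to 4 and the library without a label number, called unnumbered here, against 8.86, 8.84, 8.56, 11.0 and 9.75 CPM in the same order in Mttp_flox_CM. Replicate 4 was the highest library in both groups, and the groups overlapped through it. The log2 fold change was -0.24 with an SE of 0.11 (edgeR adjusted p = 0.0877). It was negative under all settings tried, and its adjusted p fell below the threshold without Mttp_KO_CM replicate 4 (adjusted p = 0.0168) and with library size alone (adjusted p = 0.0475). Only 105 to 178 counts per library lay behind these values.

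Pfkl (chromosome 10, 77822781 to 77845917, minus strand) encodes the liver form of phosphofructokinase, the committed step of glycolysis. Pfkl had 102, 99.6, 115, 110.1 and 103 CPM in Mttp_KO_CM, against 82.7, 84.3, 75.2, 84.0 and 81.7 CPM in Mttp_flox_CM. The groups were well apart, and Pfkl showed the second-largest increase of the 10 enzymes, with a log2 fold change of 0.38 (SE 0.0428, edgeR adjusted p = 1.27e-07). Aldoa (ENSMUSG00000030695, chromosome 7, 126394406 to 126399923, minus strand) encodes aldolase A, which cleaves fructose 1,6-bisphosphate. Aldoa had 639, 609, 687, 665 and 679.7 CPM in Mttp_KO_CM, against 525, 523, 498, 535 and 518 CPM in Mttp_flox_CM, with no overlap. Its log2 fold change was 0.34 (SE 0.0305, edgeR adjusted p = 2.71e-09). Tpi1 (chromosome 6, 124787549 to 124791259, minus strand) encodes triose phosphate isomerase, which interconverts both products of aldolase. Tpi1 had 789, 758, 809, 834 and 814 CPM in Mttp_KO_CM, against 723, 708, 714, 699.6 and 702 CPM in Mttp_flox_CM. The gap between the groups was narrow but complete, and the log2 fold change of 0.175 (1.13-fold, SE 0.0261, edgeR adjusted p = 7.75e-06) was the smallest of the 8 called enzymes.

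The later steps earn ATP back. Pgk1 (chromosome X, 105230706 to 105247305, plus strand) encodes phosphoglycerate kinase 1, which makes the first ATP. Pgk1 had 940.3, 904, 1028, 991 and 965 CPM in Mttp_KO_CM, against 814, 811, 799, 853 and 802 CPM in Mttp_flox_CM. Every Mttp_KO_CM library was above the highest Mttp_flox_CM library, replicate 4, and the log2 fold change was 0.24 (SE 0.03, edgeR adjusted p = 4.68e-07). Pgam1 (chromosome 19, 41900362 to 41907099, plus strand), the mutase that shifts the phosphate of phosphoglycerate, had 318, 317, 346, 319 and 334 CPM in Mttp_KO_CM, against 279, 267, 284, 278 and 286 CPM in Mttp_flox_CM. Its log2 fold change was 0.23 (SE 0.0298, edgeR adjusted p = 1.02e-06), again without overlap. Eno1 (chromosome 4, 150321178 to 150333336, plus strand) encodes alpha-enolase, which forms phosphoenolpyruvate, and drew more counts than any other of the 10 genes. Eno1 had 1885, 1817, 2019, 1932 and 1969 CPM in Mttp_KO_CM, against 1556, 1572, 1571, 1569 and 1597 CPM in Mttp_flox_CM. The Mttp_flox_CM libraries were almost level, with an SD of 14.8 CPM against 77.4 CPM in Mttp_KO_CM, and the log2 fold change was 0.29 (SE 0.0259, edgeR adjusted p = 1.9e-09).

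Pkm (chromosome 9, 59563651 to 59586658, plus strand) encodes the muscle-type pyruvate kinases PKM1 and PKM2, which arise by alternative splicing and which counts per gene do not separate. Pkm had 685, 664, 722, 725 and 723 CPM in Mttp_KO_CM, against 512, 505, 480.2, 529 and 523 CPM in Mttp_flox_CM. Its lowest Mttp_KO_CM library stood well above its highest Mttp_flox_CM library, and its log2 fold change of 0.47 (1.38-fold, SE 0.0303, edgeR adjusted p = 5.48e-12) was the largest of the 10. Ldha (chromosome 7, 46490899 to 46505051, plus strand) encodes the lactate dehydrogenase A subunit, which favours the reduction of pyruvate to lactate. Ldha had 1169, 1131, 1293, 1195 and 1216 CPM in Mttp_KO_CM, against 1034, 1018, 1035, 1045 and 1042 CPM in Mttp_flox_CM. The 2 groups did not overlap, and the log2 fold change was 0.215 (1.16-fold, SE 0.0286, edgeR adjusted p = 1.49e-06). All 8 called enzymes stayed past the threshold, with the same sign, in all 21 settings tried.

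Gapdh (chromosome 6, 125138678 to 125143430, minus strand) encodes glyceraldehyde 3-phosphate dehydrogenase, which stands between Tpi1 and Pgk1 in the pathway, and it behaved unlike its neighbours. Gapdh had 302, 311, 323, 2361 and 2885 counts in Mttp_KO_CM replicates 1 to 4 and the unnumbered library, against 222, 243, 306, 4295 and 224 counts in Mttp_flox_CM. Mttp_KO_CM replicate 4, the unnumbered Mttp_KO_CM library and Mttp_flox_CM replicate 4 were each several times above the other 7 libraries. In TMM-scaled CPM the values were 19.8, 21.8, 19.1, 150.4 and 206 in Mttp_KO_CM, against 15.5, 16.3, 19.0, 267 and 15.3 in Mttp_flox_CM. The highest library exceeded the lowest 10.8-fold within Mttp_KO_CM and 17.5-fold within Mttp_flox_CM, whereas among the other 9 enzymes these spans were at most 1.39-fold and 1.29-fold. High and low values occurred in both groups, and the comparison gave a log2 fold change of 0.30 with an SE of 0.672 (edgeR adjusted p = 0.773). That value was carried by single libraries. Without Mttp_flox_CM replicate 4 it was 2.32 (edgeR adjusted p = 0.00193), and without the unnumbered Mttp_KO_CM library it was -0.35 (edgeR adjusted p = 0.754). With no filter on low counts the adjusted p was 3.03e-10 at a log2 fold change of 0.29, in a fit where edgeR gave every gene the spread shared by genes of its level.

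**Figure D2:**
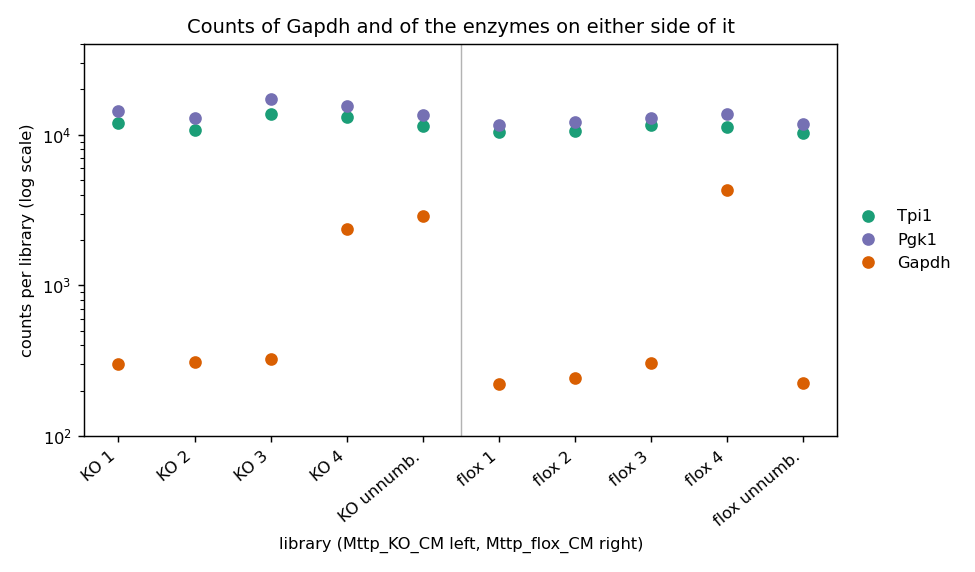
Counts per library (log scale) of Gapdh (orange), Tpi1 (green) and Pgk1 (purple), with the 5 Mttp_KO_CM libraries left of the line and the 5 Mttp_flox_CM libraries right of it. Tpi1 and Pgk1 stay between 10302 and 17382 counts, while Gapdh lies between 222 and 323 counts in 7 libraries and between 2361 and 4295 in 3.

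The separation of those 3 libraries from the other 7 was wider for Gapdh than for any other of the 14183 tested genes. The lowest of the 3 exceeded the highest of the 7 by 2.76 on the log2 scale for Gapdh, and the next gene in that order, Rps27rt, a retrogene copy of a ribosomal protein gene, had a gap of 0.455. Rps27rt had 276, 391, 954, 1672 and 1354 counts in Mttp_KO_CM, against 939, 477, 726, 1450 and 647 counts in Mttp_flox_CM. The 3 libraries were chosen by their Gapdh counts, so the gap is a description of Gapdh and carries no test. Iffo1, which overlaps the 3′ end of Gapdh on the other strand, had 130 to 194 counts per library, and the adjacent Ncapd2 had 137 to 271. Neither spanned the range that Gapdh did. The 3 Gapdh pseudogenes found by name or description, Gapdh-ps14, Gapdh-ps15 and Gapdh-ps16, had 51 counts in all. How reads matching several places in the genome were counted is not stated by any label or header, so counts of Gapdh and of the other enzymes with processed copies are uncertain to that extent.

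Gapdh is a common reference gene for RT-qPCR. Its ratio to 6 other reference genes in the same library (Actb, B2m, Hprt, Ppia, Tbp and Rplp0) therefore carried the same split. The ratio of Gapdh to Actb, in counts per kilobase, lay between 0.00332 and 0.0407 in Mttp_KO_CM and between 0.00298 and 0.0509 in Mttp_flox_CM. For all 6 ratios the adjusted p was between 0.752 and 0.788 (exact two-sided permutation test over the libraries, adjusted over 12 ratios, with 0.00794 as the smallest p that 5 against 5 can give). Actb itself had 3430 ± 184 CPM in Mttp_KO_CM and 3332 ± 91.1 CPM in Mttp_flox_CM (SD, n = 5 each; edgeR adjusted p = 0.309). Of 14 reference genes other than Gapdh 5 were higher and none was lower, with a median log2 fold change of 0.04. Over all genes tested, 36.4% were called in either direction. Tfrc, the transferrin receptor (0.31, edgeR adjusted p = 1.16e-08), and Rplp0, a ribosomal protein (0.15, 3.37e-05), were among the 5. Rpl13a (0.17, edgeR adjusted p = 0.0191) and Hprt (0.10, 0.0354) were among them too, and both lost their call under several settings.

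Levels between genes were compared in the deposited FPKM, which divide by gene length. Any order of genes thus rests on that length, which was 5379 bases for Eno1 and 2244 for Pgk1. In mean CPM Eno1 stood above Pgk1, at 1925 against 966 in Mttp_KO_CM and 1573 against 816 in Mttp_flox_CM. The order of the medians was the same in both groups: Pgk1, Ldha, Eno1, Tpi1, Aldoa, Pgam1, Pkm, Pfkl, Gapdh and Hk2. Pgk1 led with 428 ± 21.1 FPKM in Mttp_KO_CM and 361 ± 9.91 FPKM in Mttp_flox_CM, and Hk2 was last with 1.32 ± 0.194 and 1.57 ± 0.172 FPKM (SD, n = 5 each). Pfkl, at 15.8 ± 0.942 and 12.1 ± 0.565 FPKM in the same order of groups, stood far below Aldoa, the enzyme of the next step. Among neighbours in this order, Pfkl and Gapdh overlapped in both groups, Ldha and Eno1 overlapped in Mttp_KO_CM only, and all other neighbouring pairs were separate in their library ranges. The median Gapdh library had 5.25 FPKM in Mttp_KO_CM and 3.91 FPKM in Mttp_flox_CM, against 292 and 255 FPKM for Tpi1.

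Several of the enzymes also varied together among libraries of 1 group. Mttp_KO_CM replicate 3 was the highest of its group for 6 of the 10 genes and replicate 2 the lowest for 8. In Mttp_flox_CM, replicate 4 was the highest for 6 and replicate 3 the lowest for 5. After the group means were taken off, Eno1 was most like Ldha among the 10 (Pearson r of log2 CPM = 0.94 over 10 libraries) and Aldoa was most like Pkm (0.90). Gapdh and Hk2 were most like each other (0.80), and both were high in replicate 4 of each group. Each of these values is for the closest partner of a gene. The median r of a gene with the other enzymes was lower, from 0.30 for Gapdh and 0.35 for Pgam1 up to 0.79 for Aldoa. Genes of 1 library share its depth and scaling, so these values are descriptions.

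Other isoforms catalyse the same steps. A list of 18 genes held other isoforms, a related enzyme of a different reaction and glucose phosphate isomerase. Of these 14 could be tested, of which 2 were higher, 2 were lower and 10 did not pass, with a median log2 fold change of 0.08. The shares over all genes tested were 18.2% higher and 18.1% lower. From here on, a value set in parentheses after a log2 fold change is its adjusted p by edgeR's quasi-likelihood test. Gpi1, the isomerase between hexokinase and phosphofructokinase, was higher at 0.19 (edgeR adjusted p = 2.01e-06), with 539 ± 11.0 CPM in Mttp_KO_CM and 472 ± 12.9 CPM in Mttp_flox_CM. Hk3, a hexokinase best known from myeloid cells, was lower at -0.28 (0.00152), beside the lower macrophage markers given above, whose part in it was not tested. Ldhb, the other main lactate dehydrogenase subunit, was lower at -0.66 (0.00564), with 1.93 FPKM in Mttp_KO_CM and 3.04 FPKM in Mttp_flox_CM. Without the 3 libraries high in Gapdh its adjusted p was 0.0503.

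The liver form of pyruvate kinase did not pass the test. Pklr had 73.5 ± 1.95 CPM in Mttp_KO_CM and 68.7 ± 3.83 CPM in Mttp_flox_CM, a log2 fold change of 0.10 (SE 0.0418, edgeR adjusted p = 0.0663), and it passed the threshold without the unnumbered Mttp_flox_CM library (adjusted p = 0.0392), without both unnumbered libraries (0.0357) and with a replicate block over the numbered libraries (0.0282). Pfkp, the platelet form of phosphofructokinase, had a log2 fold change of -0.03 (edgeR adjusted p = 0.812), and Hk1 -0.08 (0.288). Pfkm, the muscle form, had 0.145 (1.11-fold, 0.105), and it passed the threshold in limma on log2 FPKM with 1 added (adjusted p = 0.0326) or 0.1 added (adjusted p = 0.0324).

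**Figure D3:**
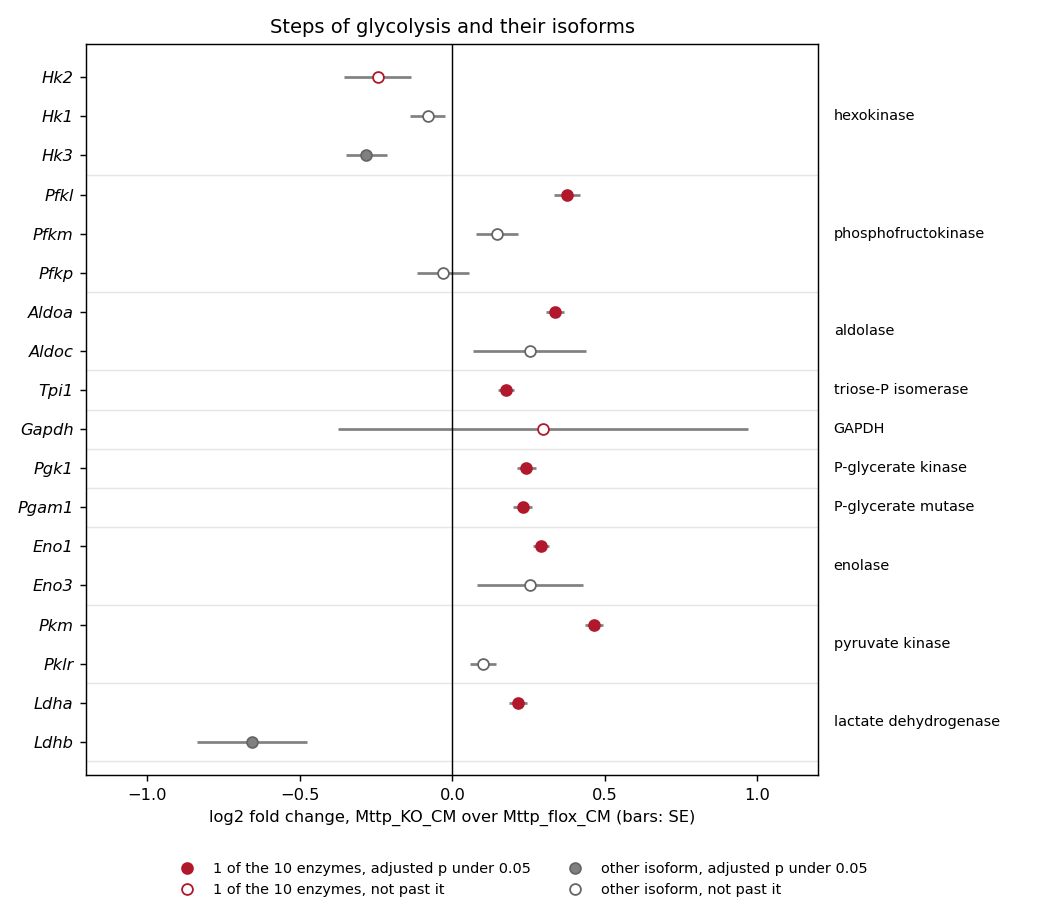
Log2 fold change of Mttp_KO_CM over Mttp_flox_CM (x axis; bars show the SE from edgeR, 5 libraries per group) for the 10 enzymes (red) and other named isoforms with a mean of at least 1 FPKM (grey), grouped by step, filled where the adjusted p was under 0.05. The red points of 8 steps lie between 0.17 and 0.47, Hk2 lies below 0, and Gapdh has the widest bar.

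Whether 2 isoforms of a step differed in their change was tested on the ratio of their counts per kilobase within each library. The size of such a ratio depends on the gene lengths used, 6675 bases for Pfkl and 13401 for Pfkp. The log2 difference between the groups does not depend on them. The ratio of Pkm to Pklr was 6.18, 5.73, 6.17, 6.35 and 6.57 in Mttp_KO_CM, against 4.62, 4.87, 4.53, 5.42 and 4.66 in Mttp_flox_CM. The groups did not overlap, and the mean log2 ratio was higher by 0.365 (exact permutation p = 0.00794, adjusted p = 0.0317). Without Mttp_KO_CM replicate 3 or the unnumbered Mttp_KO_CM library the adjusted p was 0.0635, with differences of 0.37 and 0.34. The ratio of Pfkl to Pfkp was 10.7 ± 1.10 in Mttp_KO_CM and 8.09 ± 0.640 in Mttp_flox_CM, a log2 difference of 0.41 (SD, n = 5 each; exact permutation p = 0.00794, adjusted p = 0.0317). Muscle-type pyruvate kinase thus gained on the liver form, and the liver form of phosphofructokinase gained on the platelet form.

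The ratio of Ldha to Ldhb was 200.1 ± 61.7 in Mttp_KO_CM and 106 ± 22.2 in Mttp_flox_CM, a log2 difference of 0.89 (SD, n = 5 each; exact permutation p = 0.0159, adjusted p = 0.0476). The groups overlapped, and the adjusted p was no longer under 0.05 when any 1 of 8 of the 10 libraries was left out, with differences between 0.745 and 1.05 over all 10 omissions. For Eno1 to Eno3 the difference was 0.02 (adjusted p = 0.857).

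**Figure D4:**
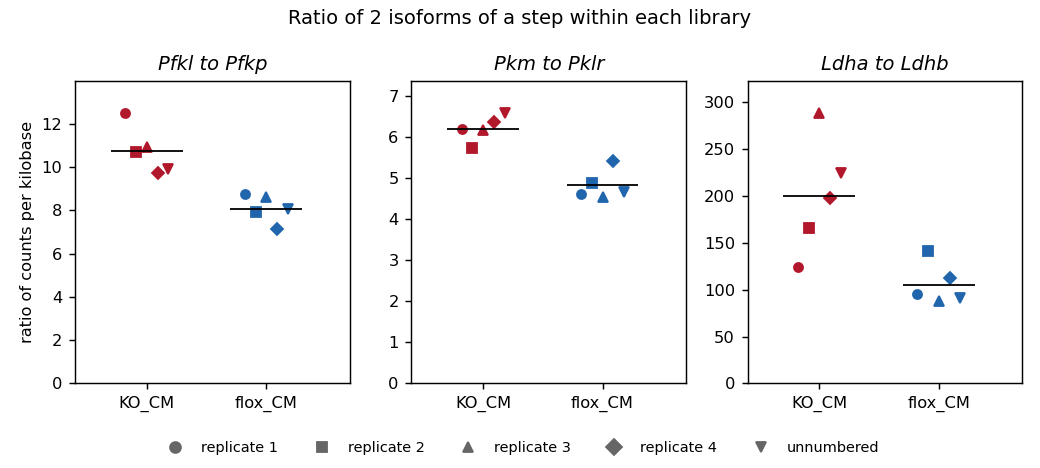
Ratio of counts per kilobase of 2 isoforms of the same step within each library (y axes from 0), Mttp_KO_CM (KO_CM, red) left of Mttp_flox_CM (flox_CM, blue), with the group mean as a line and the marker shape giving the library. Pfkl to Pfkp and Pkm to Pklr separate the groups in all libraries, with means of 10.7 and 8.09, and 6.20 and 4.82, while Ldha to Ldhb overlaps.

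Several genes that set the flow through the pathway were lower. Of 9 regulators tested 4 were lower and 1 was higher, with a median log2 fold change of -0.26. The shares to set beside this list and those that follow are 18.1% lower and 18.2% higher over all genes tested. The bifunctional enzymes that make and remove fructose 2,6-bisphosphate, the strongest activator of phosphofructokinase, accounted for 3 of the 4. Pfkfb3 had 31.1 ± 1.60 CPM in Mttp_KO_CM and 47.9 ± 2.79 CPM in Mttp_flox_CM (log2 fold change -0.62, edgeR adjusted p = 2.83e-10). Pfkfb1, the liver form, was lower at -0.58 (6.4e-07) and Pfkfb2 at -0.43 (2.17e-07), while Pfkfb4, at -0.26, did not pass (0.226). Gckr was lower at -0.37 (0.000391), and Bpgm, which makes 2,3-bisphosphoglycerate, was higher at 0.31 (0.00161).

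Transport changed in both directions. Of 9 transport genes tested 4 were higher and 2 were lower, with a median log2 fold change of 0.03. Slc2a1, the widespread glucose transporter GLUT1, had 124 ± 4.78 CPM in Mttp_KO_CM and 96.2 ± 1.68 CPM in Mttp_flox_CM (0.37, edgeR adjusted p = 4.96e-09), whereas Slc2a2, the hepatocyte transporter GLUT2, had 9.99 ± 1.22 CPM in Mttp_KO_CM and 17.6 ± 1.82 CPM in Mttp_flox_CM (-0.81, 1.12e-07). The lactate and pyruvate carriers Slc16a1 (0.71, edgeR adjusted p = 8.87e-15) and Slc16a3 (0.91, 0.000541) were higher, and so was their partner Bsg (0.16, 8.97e-05). Slc16a7, another carrier of the family, was lower at -0.18 (0.00144).

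The fate of pyruvate showed the second-largest change among all genes on these lists. Of 14 genes of pyruvate entry and oxidation 8 were higher and 3 were lower, with a median log2 fold change of 0.14. Pdk4, the kinase that switches pyruvate dehydrogenase off, had 1429 ± 33.6 CPM in Mttp_KO_CM and 222 ± 20.7 CPM in Mttp_flox_CM, a 6.43-fold difference (log2 fold change 2.685, SE 0.0428, edgeR adjusted p = 4.48e-24). Its relative Pdk2 was lower at -0.29 (1.38e-05). Pdp2, a phosphatase that switches the complex on, was higher at 0.40 (2.85e-06), and the complex subunits Pdhb (0.22, 9.48e-05) and Dlat (0.18, 0.000634) were higher as well.

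Of 8 genes, for enzymes and a transporter, that gluconeogenesis uses and glycolysis does not, 3 were higher and 2 were lower, with a median log2 fold change of 0.10. Fbp2, the muscle-type fructose bisphosphatase, had 59.1 ± 2.85 CPM in Mttp_KO_CM and 4.51 ± 0.813 CPM in Mttp_flox_CM, a 13.1-fold difference (log2 fold change 3.715, SE 0.0758, edgeR adjusted p = 3.7e-22). Fbp1, the liver form, was higher at 0.42 (2.78e-06), and so was G6pc, the glucose 6-phosphatase that releases glucose, at 0.79 (4.17e-07). The 2 lower genes were Pcx, pyruvate carboxylase, at -0.33 (1.28e-06) and Pck1, cytosolic phosphoenolpyruvate carboxykinase, at -0.38 (0.000313). For Pck1 the groups overlapped, with 39.3 to 57.7 CPM in Mttp_KO_CM and 54.4 to 68.6 CPM in Mttp_flox_CM. The liver glucose output genes thus did not share 1 direction.

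Of 18 genes of the side branches 9 were higher and 2 were lower, with a median log2 fold change of 0.14. The pentose phosphate enzymes Pgd (0.32, edgeR adjusted p = 8.31e-11) and Taldo1 (0.21, 2.39e-07) were higher, as were Gpd1, which leads to glycerol 3-phosphate (0.31, 3.78e-09), and Pgm1, which joins glycogen to the pathway (0.27, 1.36e-07). Ugp2, which makes the sugar donor for glycogen, was lower at -0.46 (3.93e-12).

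Of 12 transcription factors known to act on glycolytic genes 7 were higher and 3 were lower, with a median log2 fold change of 0.19. Hif1a, the oxygen-regulated factor that binds many glycolytic promoters, had 262 ± 14.9 CPM in Mttp_KO_CM and 190.3 ± 5.89 CPM in Mttp_flox_CM (0.46, edgeR adjusted p = 1.23e-10). Klf10, a zinc finger factor (0.84, 1.19e-13), Srebf1, the lipogenic factor (0.72, 1.69e-13), and Myc, a factor of cell growth (0.34, 1.74e-08) were higher. Mlxipl, which encodes the carbohydrate response factor, was higher at 0.20 (0.000259), and its relative Mlxip was lower at -0.48 (6.46e-09). Epas1, which encodes the other main hypoxia-inducible alpha subunit, was lower at -0.105 (0.00428), and Arnt, the partner of both subunits, had -0.07 (0.122). HIF1 is controlled mainly through the stability of its protein, which RNA does not show.

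**Figure D5:**
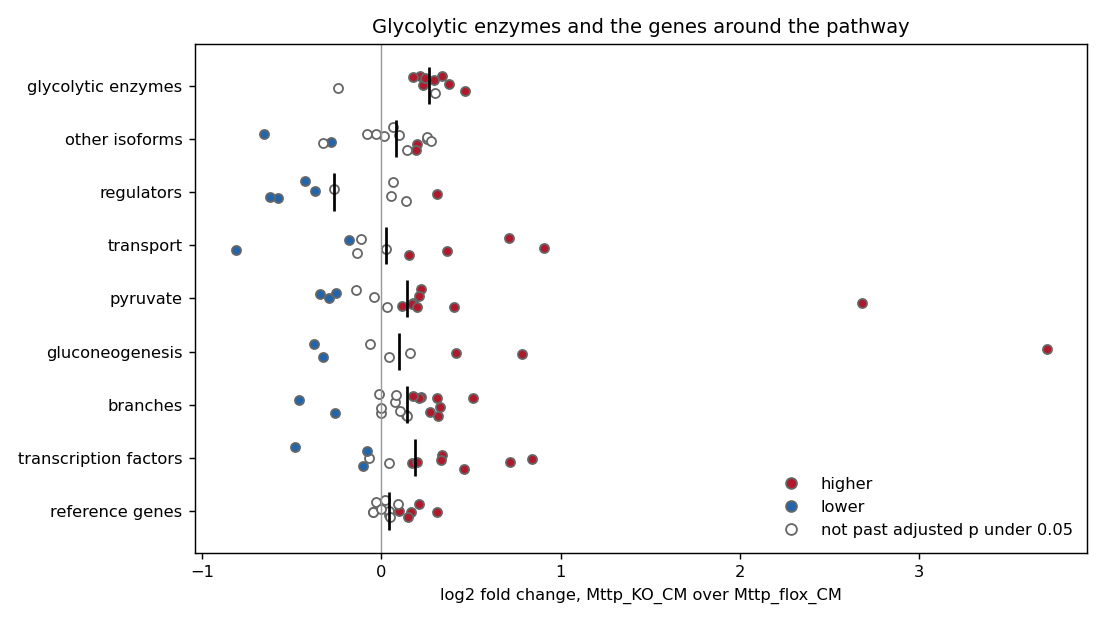
Log2 fold change of Mttp_KO_CM over Mttp_flox_CM (x axis) for every tested gene of the 10 enzymes and of 8 lists around the pathway, red where higher and blue where lower at an adjusted p under 0.05, with the median of each list as a line and vertical scatter added for display. The enzymes cluster near their median of 0.27, regulators have the lowest median at -0.26, and Pdk4 and Fbp2 lie far to the right.

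The promoter windows are shown because 8 of the 10 genes were higher together. The 250 bases before each start site in RefSeq (GRCm38.p6) were searched for ACGTG and GCGTG, the core that hypoxia-inducible factors recognise, and for the E-box CACGTG, on both strands. CACGTG contains ACGTG, so each E-box also counts as a core. Of the 16 windows of the 10 genes 13 held a core, which is 81.2%, against 38.6% of all 32851 windows, and 9 of the 10 genes had a core in at least 1 window, against 41.5% of all 27025 genes. The 10 genes had more windows per gene than all genes did, which raises the share with a core in at least 1 window. Windows of start sites close to each other share sequence, as those of Eno1 and Aldoa do, so the windows are not independent. Tpi1, which was higher, had none in its window, and Hk2 and Gapdh, which did not pass the test, had cores. Whether cores go with the calls was not tested. An E-box lay in 1 of the 16 windows, that of Ldha, against 6.02% of all windows. The windows of the 10 genes were also richer in G and C, with a median of 63.4% against 52.4%. Windows of Hk2 (chr6:82774455-82774704, minus strand), Pgk1 (chrX:106186850-106187099, plus strand), Pkm (chr9:59656977-59657226, plus strand) and Ldha (chr7:46845554-46845803, plus strand) are given 5′ to 3′, with every core in capitals. They show an enzyme without a call, the most abundant per length, the largest increase and the window with the most cores.
Hk2: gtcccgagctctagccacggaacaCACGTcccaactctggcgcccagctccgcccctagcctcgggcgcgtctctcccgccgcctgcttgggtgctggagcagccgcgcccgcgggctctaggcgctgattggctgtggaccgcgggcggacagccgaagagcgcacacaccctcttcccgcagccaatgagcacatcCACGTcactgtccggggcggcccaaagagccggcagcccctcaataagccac
Pgk1: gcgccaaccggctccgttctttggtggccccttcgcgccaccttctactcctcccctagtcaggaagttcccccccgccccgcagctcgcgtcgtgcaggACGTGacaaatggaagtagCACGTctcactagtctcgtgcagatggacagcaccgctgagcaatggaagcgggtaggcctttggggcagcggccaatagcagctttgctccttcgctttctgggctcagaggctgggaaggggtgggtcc
Pkm: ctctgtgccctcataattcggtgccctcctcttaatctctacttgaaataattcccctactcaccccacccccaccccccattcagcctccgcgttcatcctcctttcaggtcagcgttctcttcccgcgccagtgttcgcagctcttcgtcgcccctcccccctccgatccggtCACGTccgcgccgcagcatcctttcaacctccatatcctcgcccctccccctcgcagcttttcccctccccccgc
Ldha: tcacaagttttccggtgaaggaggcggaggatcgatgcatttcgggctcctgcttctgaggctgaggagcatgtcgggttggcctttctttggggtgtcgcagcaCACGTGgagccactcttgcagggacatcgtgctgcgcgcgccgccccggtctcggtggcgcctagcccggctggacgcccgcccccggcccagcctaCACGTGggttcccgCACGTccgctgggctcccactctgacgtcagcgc
The Ldha window held 5 core matches over both strands, 2 each from its 2 E-boxes and 1 more. The Pkm window held 1, and those of Hk2 and Pgk1 held 2 each. A match is a string of letters in the window and says nothing on whether a factor was bound there.

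Copies that could be found by name or description took few counts, and copies listed under other names were not looked for. The tables hold 24 other rows named or described as copies of these enzymes, 10 of them with counts, and together they had 6008 counts, or 0.637% of the 942998 counts of the 10 enzymes. Eno1b with 3493 counts, Tpi-rs11 with 805 and Pgam1-ps2 with 765 were the largest. Pkm overlaps Gm49759 on the same strand, which had 4693 counts against 92449 for Pkm. Some reads of that locus may have been assigned to either gene or to neither.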

How the data were processed

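The files hold counts per gene, which the authors deposited as whole numbers, and FPKM, which they deposited for each of the 10 libraries as well. The submitters' processing notes name HISAT2 2.0.5, featureCounts 1.5.0-p3 and GRCm39; no source states the strand setting or how reads with several matches were treated. Both libraries called unnumbered have a column number absent from the labels, and their column letter put them in a group. With edgeR 4.0.16 in R 4.3.3, filterByExpr (minimum count 10, minimum total 15) kept 14183 of the 56748 gene rows, which hold 99.8% of all counts. Libraries were TMM-scaled, and a quasi-likelihood model with the group as its term was tested with Benjamini-Hochberg adjustment over all tested genes. The deposited FPKM served for levels between genes and, on log2 with 1 or 0.1 added, for limma 3.58.1. DESeq2 1.42.0 was an alternative. Ratios of 2 genes were compared by exact permutation. A few listed genes and ratios kept their place in every fit, count and adjustment but are not reported here.

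The 10 enzymes, the lists around them and the marker lists were chosen with earlier results of these data known. Named with values were all 10 enzymes, up to 5 genes with the smallest p per list, isoforms with a mean of at least 1 FPKM, both genes of each ratio and the copies with the most counts. Hba-a1, Ptprc, Cd3g, Nkg7, Lep, Adipoq, Rps27rt, Iffo1, Ncapd2, Pfkfb4, Slc16a7, Mlxipl, Epas1, Arnt and Gm49759 were named after their values were seen. Depth was 14199798 to 17178131 counts per library. The fitting script was tested on simulated data. Recovery over genes of all levels missed the limit first set, and the limit was then restated for better-expressed genes, which met it. No 2 libraries of a group agreed within sampling noise, since the lowest chi-square per degree of freedom of any pair was 2.18.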

Additional observations from a re-analysis of the deposited data

Results flagged for a closer look

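Dixon's test at the 95% level was applied to the 5 libraries of each group, and chance alone marks about 1 group in 20. It marked 11 of 138 sets of values, all in Mttp_flox_CM, and 10 of them are given here. Gapdh in Mttp_flox_CM replicate 4 stood at 267 CPM, while the other 4 libraries of that group lay between 15.3 and 19.0 CPM. The same library stood apart in all 6 ratios of Gapdh to another reference gene, at 0.0509 for Actb, 0.0661 for B2m, 0.645 for Hprt, 0.344 for Ppia, 48.2 for Tbp and 0.0837 for Rplp0, so these are 1 observation and not 6. The unnumbered Mttp_flox_CM library stood apart for Aldoc, a brain-type aldolase, at 4.57 CPM (others 2.74 to 2.98), for Pfkfb1 at 21.5 CPM (others 18.6 to 19.2) and for Bsg at 507.5 CPM (others 539 to 551). In Mttp_KO_CM no set was marked, although replicate 4 and the unnumbered library had Gapdh at 150.4 and 206 CPM.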

How the results depend on the processing

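The counts of genes and of enzymes higher were within 1.5 times the reported ones in every setting tried, with 8 or 9 enzymes higher, 34 to 41 genes around the pathway higher and 17 to 20 lower. The 9th enzyme was Gapdh, with no filter on low counts and without Mttp_flox_CM replicate 4 (log2 fold change 2.322). The count of enzymes lower was 1, Hk2, with library size alone, and it ranged from 0 to 1 when single libraries were left out. The median log2 fold change of the 10 enzymes lay between 0.224 and 0.287 over those omissions.

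Same-numbered libraries did not deviate together (correlations of 0.02, -0.005, -0.009 and 0.075 over 14183 genes), so the numbers were not taken to pair libraries. With a replicate block over the numbered libraries 2326 genes were higher and 2325 lower, and Gapdh had a log2 fold change of -0.256. Without both unnumbered libraries Gapdh had -0.598, and without Mttp_KO_CM replicate 4 or the unnumbered Mttp_KO_CM library -0.037 and -0.348. Genes near 0 changed sign without a call. Pfkp had 0.033 and 0.026 without Mttp_KO_CM replicate 1 and Mttp_flox_CM replicate 4, within -0.087 to 0.033 over single omissions. Tbp had -0.022 with library size alone, -0.011 and -0.027 without Mttp_KO_CM replicate 3 and Mttp_flox_CM replicate 4 (up to 0.042 over single omissions), 0.000 without both unnumbered libraries and with the block (rounded from below 0), and -0.006 without the 3 libraries over 1000 Gapdh counts. Ppia had -0.045 and -0.007 without Mttp_KO_CM replicates 1 and 3, and up to 0.122 over single omissions.

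When single libraries were left out, the log2 differences lay between 0.353 and 0.443 for Pfkl to Pfkp, 0.343 and 0.408 for Pkm to Pklr, 0.745 and 1.048 for Ldha to Ldhb, and -0.063 and 0.089 for Eno1 to Eno3, which was -0.007 without Mttp_flox_CM replicate 3. Without both unnumbered libraries, and with the replicate block over the same libraries, Pfkl to Pfkp, Pkm to Pklr and Ldha to Ldhb had differences of 0.436, 0.332 and 0.786 and were past no threshold after adjustment. Gapdh had -0.064 to Actb, -0.091 to Hprt, -0.13 to Ppia, -0.01 to Tbp and -0.146 to Rplp0 there, and 0.038 to B2m. Without the 3 libraries over 1000 Gapdh counts, a setting chosen after seeing the data, these 3 differences were 0.448, 0.368 and 0.832, again past no threshold. With 7 or 8 libraries those tests have few permutations, so a lost call there says little. Under the replicate block the permutations within replicates are too few for any ratio to reach an adjusted p under 0.05. The lost calls under the block were therefore fixed in advance. Hk2 had at most 178 counts in a library, which limits its precision.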
